A study of Mus musculus with 12 samples.

Results

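Cxcl12, a chemokine once named SDF-1, and its receptors Cxcr4 and Ackr3 (older symbol Cxcr7) were followed on 12 mouse Affymetrix arrays. Members were every probe set that the platform annotation gave to one of these 3 genes. There were 5 of them among 45037 probe sets, 3 for Cxcl12 (gene ID 20315), 1 for Cxcr4 (12767) and 1 for Ackr3 (12778). The study used C3H10T1/2, a line of mouse embryonic fibroblast-like cells that can form cartilage, bone and fat, and measured its total RNA in 4 groups of 3 arrays. Cells of the over-expression experiment received siRNA-140, a double-stranded mimic of miR-140, or siRNA-96, a miR-96 form that served as its control. Cells of the suppression experiment received LNA-antimicroRNA-140, an oligonucleotide of locked nucleic acid that blocks miR-140, or LNA-antimicroRNA-449 as its control. These are called antimicroRNA-140 and antimicroRNA-449 here. No untransfected cells were among the arrays, so all 4 groups carried a mimic or a blocker of a microRNA. The labels give neither dose nor time after transfection. Nor do they tell whether the replicates of a group came from different cultures, so p-values here measure the spread between arrays, which may be technical.

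Cxcl12 is secreted by mesenchymal stromal cells and draws and holds cells that carry Cxcr4, among them blood stem cells in bone marrow. Cxcr4 is a receptor coupled to inhibitory G proteins. Ackr3 binds the same chemokine, recruits arrestin rather than G proteins and clears the ligand from the cell surface. A microRNA lowers its targets by pairing, through a seed near its 5′ end, with sites in their messenger RNA, and Cxcl12 has been reported as a target of miR-140 in mouse cells. That report may rest on these very samples, so it is not independent of them.

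Mature microRNAs with the names in the labels are shown because the seed sets which messenger RNAs a microRNA pairs with. The sequences are RefSeq's (GRCm38.p6), and capitals mark the seed, bases 2 to 8 from the 5′ end. The labels do not say which arm of each microRNA or which member of the miR-449 family was meant. Of miR-96 and miR-449 only 5p arms are shown, and their 3p arms have other seeds. miR-140-5p had no entry among the sequences used and is named only, so the miR-140 seed shown may not be the one meant.
mmu-miR-140-3p: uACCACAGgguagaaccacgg
mmu-miR-96-5p: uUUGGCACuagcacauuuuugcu
mmu-miR-449a-5p: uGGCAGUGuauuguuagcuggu
mmu-miR-449c-5p: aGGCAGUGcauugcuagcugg
The miR-449a and miR-449c 5p arms share the seed GGCAGUG. The seeds of miR-140-3p and miR-96-5p differ from it and from each other. siRNA-96 is a form of another microRNA, and antimicroRNA-449 is a blocker of another. An effect of miR-140 and one of its control thus cannot be told apart in the differences below.

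The values were RMA log2 expression values, a scale on which a difference of 1 is a doubling of the signal. Of the markers of the labelled cell type, 9 mesenchymal ones of 10 listed averaged 10.2 to 10.5 on the siRNA-140 arrays, 10.1 to 10.5 on the siRNA-96 arrays, 10.7 to 10.8 with antimicroRNA-140 and 10.7 to 10.8 with antimicroRNA-449. Thy1, one of the 9, read 3.09 to 3.98 over all arrays. The 7 haematopoietic markers of 8 listed averaged between 3.69 and 4.07 over all arrays, the 6 endothelial ones between 3.23 and 3.67 and the 6 epithelial ones between 3.43 and 4.11. RMA gives no zero, and levels of different probe sets cannot be set against each other, so these values neither place the cells nor show a marker to be absent. Median values of the arrays were 3.95 to 4.02 in the siRNA groups and 4.32 to 4.38 in the antimicroRNA groups. No source used here says whether the experiments were normalized together, so members were tested within each experiment.

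The siRNA arrays did not keep to their labels. Vnn1, which encodes the pantetheinase vanin, had log2 values of 10.37, 10.51 and 5.52 on the siRNA-140 arrays (replicates 1 to 3) and of 10.04, 5.66 and 5.27 on the siRNA-96 arrays (replicates 1 to 3). siRNA-140 replicate 3 thus lay beside siRNA-96 replicates 2 and 3, and siRNA-96 replicate 1 beside siRNA-140 replicates 1 and 2. Of all probe sets, 24.5% set the same 3 arrays apart from the other 3 without overlap, 10.2% with the high-Vnn1 arrays lower and 14.4% with them higher. The 18S ribosomal RNA control probe sets averaged 5.62 to 6.73 on the siRNA-140 arrays and 10.5, 5.40 and 7.86 on the siRNA-96 arrays. They averaged 5.92 to 6.75 on the antimicroRNA-140 arrays and 10.2, 6.24 and 6.33 on the antimicroRNA-449 arrays. The files cannot show whether the labels of siRNA-140 replicate 3 and siRNA-96 replicate 1 were exchanged or something else split the arrays, so what a difference between siRNA-140 and siRNA-96 stands for is not settled. Each member is given with all arrays and with that pair left out, and under the LNA with and without antimicroRNA-449 replicate 1. Arrays are listed below by replicate number.

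Among the members the bright Cxcl12 probe sets varied most over the 6 siRNA arrays, by 1.39 and 1.81 on the log2 scale, against 0.75 for Cxcr4 and 0.5 for Ackr3. At Cxcl12 probe set 1448823_at the siRNA-140 arrays read 9.11, 9.11 and 10.39, and the siRNA-96 arrays read 9.01, 10.4 and 10.3. At its second bright probe set, 1417574_at, the siRNA-140 arrays read 8.24, 8.41 and 10.01, and the siRNA-96 arrays read 8.20, 9.96 and 10.01. At each probe set 3 arrays were low and 3 high, with a gap of 1.19 between them at the first and 1.55 at the second, and each label held arrays on either side of the gap. The 3 low arrays were the 3 with high Vnn1. Within the low arrays the first probe set spanned 9.01 to 9.11, and within the high arrays 10.3 to 10.4.

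Between the groups as labelled, Cxcl12 did not differ beyond the spread. At 1448823_at the means were 9.54 ± 0.74 with siRNA-140 and 9.90 ± 0.78 with siRNA-96 (SD, n = 3 each), and limma gave a log2 difference of -0.37 ± 0.35 (SE; 95% interval -1.12 to 0.38; adjusted p = 0.893). At 1417574_at the mean was 8.89 ± 0.98 for siRNA-140 and 9.39 ± 1.03 for siRNA-96 (SD, n = 3 each), with a difference of -0.50 ± 0.46 (interval -1.50 to 0.49; adjusted p = 0.892). At these probe sets the errors pool the wide spread of the siRNA arrays with the narrower spread of the antimicroRNA arrays. Fitted to its own 6 arrays, the siRNA experiment gave wider intervals, -1.37 to 0.63 at 1448823_at and -1.81 to 0.81 at 1417574_at. Leaving out single arrays moved the difference at 1417574_at between -1.10, without siRNA-96 replicate 1, and -0.18, without siRNA-140 replicate 1. With array weights the differences were -0.69 at 1448823_at (limma adjusted p = 0.577) and -0.98 at 1417574_at (adjusted p = 0.572). A two-sided exact permutation test of 3 arrays against 3, which cannot go below p = 0.1, gave p = 0.9 and p = 1 for these probe sets. limma called 0% of all probe sets in this comparison, with 2292 at an unadjusted p under 0.05, and 0 of the 5 members. The groups overlapped at all 5 members, where 6.1% of all probe sets had groups that did not overlap.

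The third Cxcl12 probe set, 1439084_at, did not follow the bright pair. Its siRNA-140 arrays read 4.18, 4.34 and 4.25, and its siRNA-96 arrays read 4.46, 4.21 and 4.24. All 6 arrays lay within 0.28 of each other, and the highest was siRNA-96 replicate 1, the lowest array at both bright probe sets. The difference was -0.05 ± 0.10 (SE; interval -0.26 to 0.17; limma adjusted p = 0.954; exact permutation p = 0.7). Its mean signal stood at the 54.1st percentile of all probe sets, whereas those of 1448823_at and 1417574_at stood at the 95.9th and the 94.0th. Brightness of a probe set depends on its probes as well as on the transcript. Which transcript form each probe set reads is not given in the files used here.

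**Figure D1:**
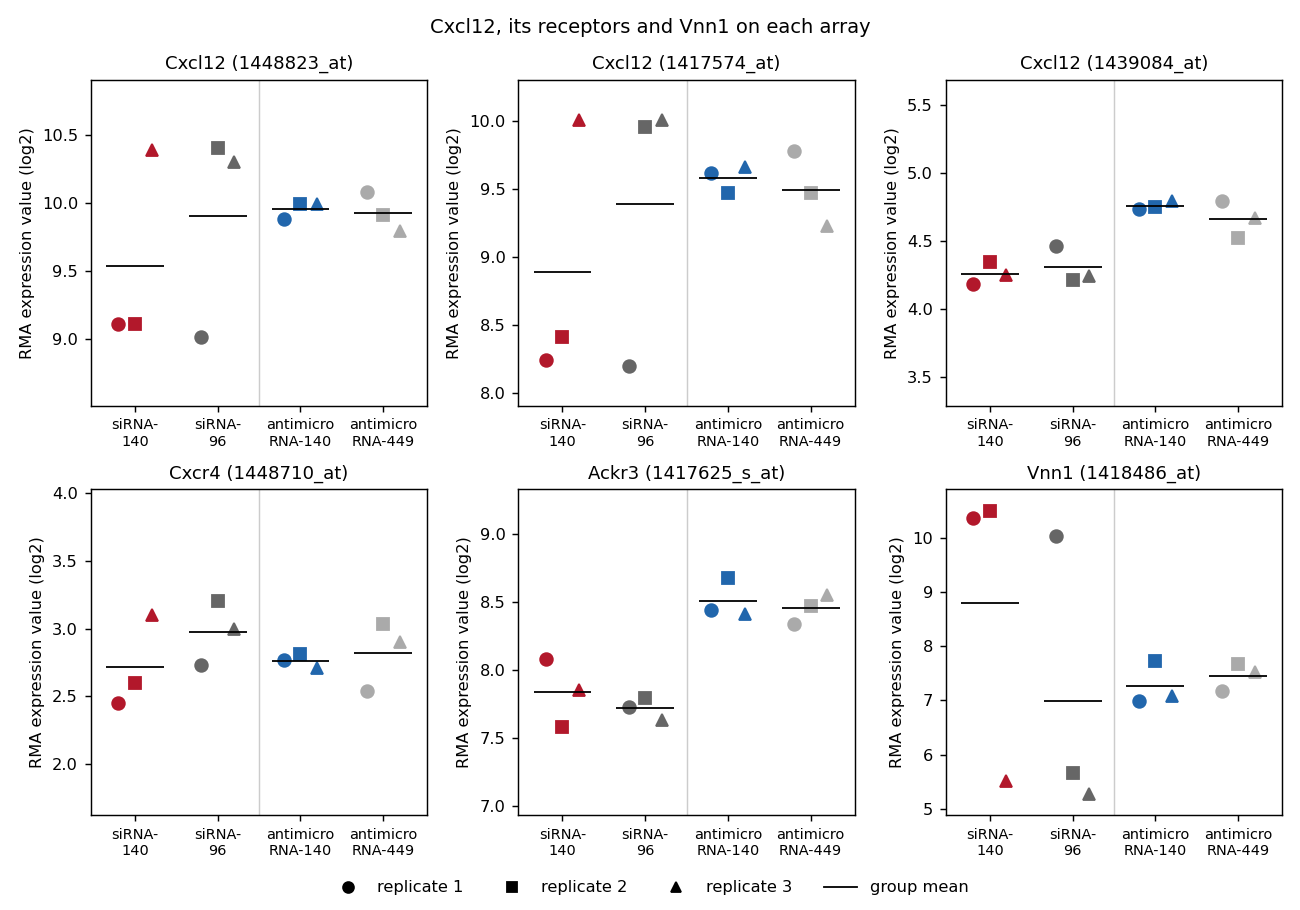
RMA log2 value (vertical axis) of each member probe set and of Vnn1 on every array, by group (horizontal axis). Points are arrays, with the shape giving the replicate number, and black lines are group means. In the siRNA experiment the bright Cxcl12 probe sets split into 3 low and 3 high arrays across the labels, Cxcr4 does so over a smaller range, Ackr3 does not, and Vnn1 splits the other way. The antimicroRNA arrays show no such split.

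Cxcr4, the signalling receptor, had a dim probe set (1448710_at, 24.6th percentile of all probe sets). Its values were 2.45, 2.60 and 3.10 on siRNA-140 arrays, against 2.73, 3.20 and 3.0 on siRNA-96 arrays. The 3 arrays that were low for Cxcl12 spanned 2.45 to 2.73 and the other 3 spanned 3.0 to 3.20, so that Cxcr4 showed the same split with a gap of 0.27. This split was shared by 10.2% of all probe sets, and the values are near the low end of the scale, where RMA values rest mostly on background. The group means were 2.72 ± 0.34 with siRNA-140 and 2.98 ± 0.24 with siRNA-96 (SD, n = 3 each). limma gave -0.26 ± 0.17 (interval -0.63 to 0.11; adjusted p = 0.88), and the exact permutation test gave p = 0.3. Leaving out single arrays moved it between -0.45, without siRNA-140 replicate 3, and -0.13, without siRNA-140 replicate 1, with no call.

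Ackr3, the scavenging receptor, did not share the split. Its probe set 1417625_s_at gave 8.08, 7.58 and 7.85 on siRNA-140 arrays, against 7.73, 7.79 and 7.63 on siRNA-96 arrays. The highest and the lowest value were both among the siRNA-140 arrays, and the 3 arrays low for Cxcl12 spanned 7.58 to 8.08, around the 7.63 to 7.85 of the other 3. The means were 7.84 ± 0.25 with siRNA-140 and 7.72 ± 0.08 with siRNA-96 (SD, n = 3 each), a difference of 0.12 ± 0.13 (SE; interval -0.15 to 0.39; limma adjusted p = 0.902; exact permutation p = 0.5). The suffix of this probe set marks probes that can match more than one transcript.

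With that pair of arrays left out, Cxcl12 was lower with siRNA-140 at both bright probe sets. The difference was -1.24 ± 0.12 at 1448823_at, a signal 2.36-fold lower (interval -1.49 to -0.99; limma adjusted p = 2.17e-05), and -1.66 ± 0.15 at 1417574_at, 3.16-fold lower (interval -1.99 to -1.33; adjusted p = 2.08e-05). Cxcr4 was lower by -0.575 ± 0.15, or 1.49-fold (interval -0.89 to -0.26; adjusted p = 0.0272). With the 4 remaining siRNA arrays alone, Cxcr4 did not pass (adjusted p = 0.0668), while the bright Cxcl12 probe sets passed (0.000932 at 1448823_at and 0.000166 at 1417574_at). Ackr3 differed by 0.12 ± 0.16 (adjusted p = 0.754) and the dim Cxcl12 probe set by 0.035 ± 0.11 (adjusted p = 0.916). So 3 of the 5 members were lower in that setting, where 3.85% of all probe sets were called lower and 5.13% higher, 8.98% in all. With the 4 arrays alone 2 of the 5 were lower, where 1.85% of all probe sets were called lower and 2.02% higher, 3.87% in all. Since the arrays were dropped for the very profile that this setting compares, its p-values do not test miR-140 independently.

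Compared within the profiles, Cxcl12 differed by values near 0. With the Vnn1 profile as a block, so that siRNA-140 and siRNA-96 arrays were compared within each set of 3, the difference was 0.07 ± 0.10 at 1448823_at (interval -0.14 to 0.28; limma adjusted p = 0.913) and 0.075 ± 0.13 at 1417574_at (interval -0.20 to 0.35). Cxcr4 gave -0.10 ± 0.13 (interval -0.37 to 0.17) and Ackr3 0.12 ± 0.13 (interval -0.16 to 0.40). In this fit 0% of all probe sets were called. The block was defined from measured values of the same arrays, so it is no design factor. It splits the arrays as the bright Cxcl12 probe sets do, so their values near 0 were set in advance and do not test miR-140. Cxcr4 splits the same way, so its value under the block was also drawn toward 0 in advance. Had the labels been exchanged, the block would compare arrays of the same treatment. Leaving out single arrays moved the difference at 1448823_at between -0.81, without siRNA-96 replicate 1, and -0.12, without siRNA-96 replicate 2, and no single array left out led to a call for a member. Leaving out siRNA-140 replicate 3 gave -0.79 (limma adjusted p = 0.279), and leaving out siRNA-140 replicate 1 or 2 gave -0.15.

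**Figure D2:**
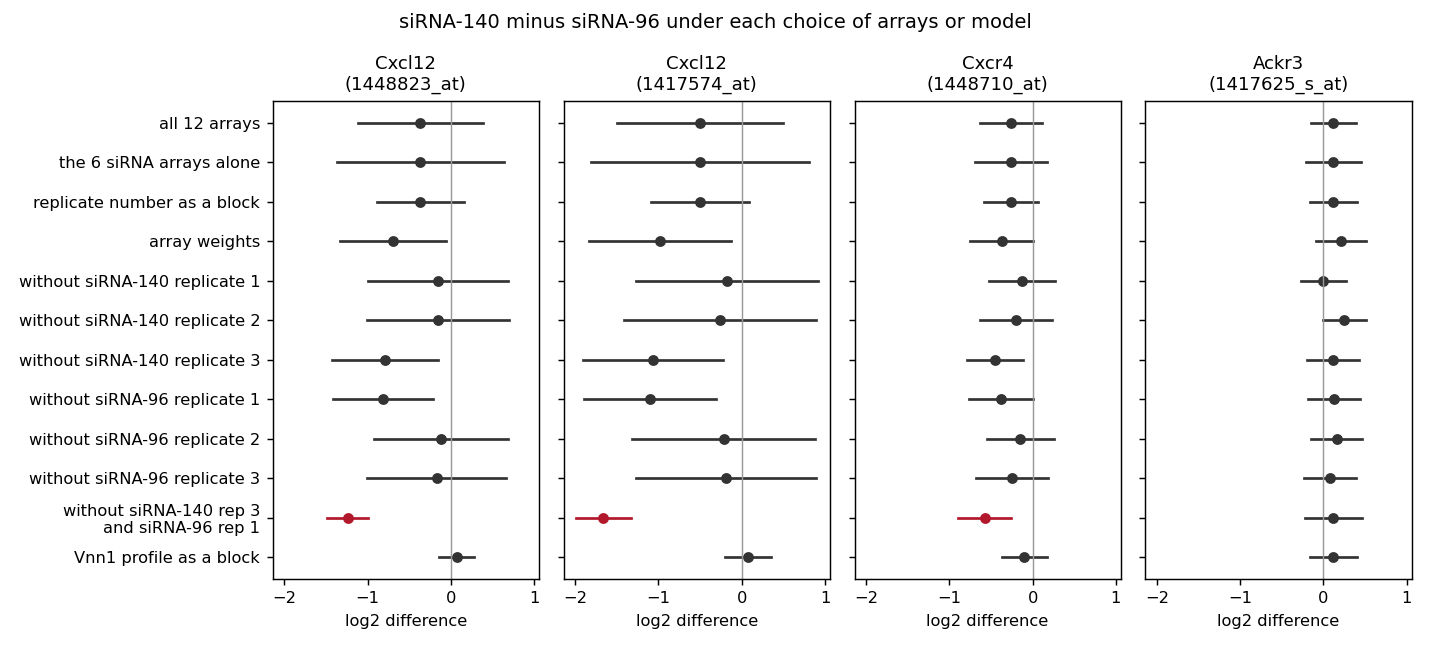
Log2 difference siRNA-140 minus siRNA-96 (horizontal axis) of the bright Cxcl12 probe sets, Cxcr4 and Ackr3 under each choice of arrays or model (rows). Points are limma estimates, bars are 95% intervals, and red marks an adjusted p under 0.05 over all probe sets. Cxcl12 moves between -1.24 and 0.07 at its first probe set, while Ackr3 lies between -0.00167 and 0.25.

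With antimicroRNA-140, all members stayed within the spread. At Cxcl12 1448823_at the antimicroRNA-140 arrays read 9.88, 9.99 and 9.99, and the antimicroRNA-449 arrays read 10.08, 9.91 and 9.79. At 1417574_at the antimicroRNA-140 arrays read 9.62, 9.47 and 9.66, and the antimicroRNA-449 arrays read 9.78, 9.47 and 9.23. At both, the antimicroRNA-449 arrays enclosed those of antimicroRNA-140. The differences were 0.03 ± 0.35 (interval -0.72 to 0.78) and 0.09 ± 0.46 (interval -0.90 to 1.08), with errors that take in the wide spread of the siRNA arrays. In the fit of the 6 antimicroRNA arrays alone the intervals were -0.18 to 0.23 and -0.21 to 0.39. That fit holds antimicroRNA-449 replicate 1, the highest of the 6 arrays at both probe sets, and was not repeated without it. Without antimicroRNA-449 replicate 1, the array with high 18S signal, the model over both experiments gave 0.10 ± 0.41 and 0.23 ± 0.53.

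The receptors gave the same picture under the LNA. Cxcr4 had 2.77, 2.81 and 2.71 on antimicroRNA-140 arrays, against 2.54, 3.03 and 2.90 on antimicroRNA-449 arrays, a difference of -0.06 ± 0.17 (interval -0.43 to 0.31; limma adjusted p = 1). Ackr3 had 8.44, 8.68 and 8.41 on antimicroRNA-140 arrays, against 8.34, 8.47 and 8.55 on antimicroRNA-449 arrays, a difference of 0.06 ± 0.13 (interval -0.21 to 0.33; adjusted p = 1). The dim Cxcl12 probe set had 4.73, 4.75 and 4.79 on antimicroRNA-140 arrays, against 4.79, 4.52 and 4.67 on antimicroRNA-449 arrays, a difference of 0.10 ± 0.10 (interval -0.12 to 0.31). Without antimicroRNA-449 replicate 1 these were -0.20 ± 0.18 for Cxcr4, 0 ± 0.14 for Ackr3 and 0.16 ± 0.11 at the dim Cxcl12 probe set (limma adjusted p = 1 for each). All groups overlapped, where 8.4% of all probe sets had groups that did not. limma called 0% of all probe sets here, with 1022 at an unadjusted p under 0.05, and 0 of the 5 members; the exact permutation p of the members lay between 0.4 and 1.

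A messenger RNA that miR-140 lowers would be lower with the mimic and, if the blocker acted, higher with the block. No value here measures miR-140 or shows that the blocker acted, so the differences below do not test whether a member is a target. The difference of both contrasts, siRNA minus antimicroRNA, was -0.39 ± 0.49 at 1448823_at (interval -1.45 to 0.67), -0.59 ± 0.65 at 1417574_at (interval -2.00 to 0.81), -0.14 ± 0.14 at 1439084_at, -0.20 ± 0.24 for Cxcr4 and 0.06 ± 0.18 for Ackr3. Each had a limma adjusted p of 0.997, and 0% of all probe sets were called, with 1322 at an unadjusted p under 0.05. Without the same pair of siRNA arrays, it was -1.27 ± 0.15 at 1448823_at (limma adjusted p = 0.000308), -1.75 ± 0.20 at 1417574_at (0.000221) and -0.515 ± 0.19 for Cxcr4 (0.187). In that setting 4.41% of all probe sets were called, and 2.13% of all probe sets were called lower. The values come almost wholly from the siRNA side, since the antimicroRNA differences were near 0. The pair was dropped for the very profile compared, so the p-values without it do not test miR-140 independently.

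Across the 4 groups, the mean level of Cxcl12 1448823_at was lowest with siRNA-140 (9.54), followed by siRNA-96 (9.90), antimicroRNA-449 (9.93) and antimicroRNA-140 (9.95). No neighbours in this order differed beyond their spread. All 6 antimicroRNA arrays, at 9.79 to 10.08, lay in the gap between the 3 low and the 3 high siRNA arrays. For 1417574_at the antimicroRNA range of 9.23 to 9.78 also lay in that gap. After a further quantile normalization over all 12 arrays the antimicroRNA ranges were 9.67 to 9.91 and 9.10 to 9.61. The siRNA extremes were then 9.16 and 10.59 at the first probe set and 8.41 and 10.19 at the second. Ackr3 read 8.34 to 8.68 over the antimicroRNA arrays and 7.58 to 8.08 over the siRNA arrays as deposited. After that normalization these ranges were 8.16 to 8.48 and 7.64 to 8.26, which overlap. Cxcr4 averaged 2.72 with siRNA-140, 2.98 with siRNA-96, 2.76 with antimicroRNA-140 and 2.82 with antimicroRNA-449, all within their spread. Levels are set side by side across the experiments without a test, because a shared normalization is not recorded. In these bulk samples fewer cells that make a transcript and less of it per cell cannot be told apart.

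The genes most like Cxcl12 were found by the root mean square difference of log2 values, centred within each experiment, over the 12 arrays and the 19529 probe sets of 1 named gene whose mean was at or above the median of all probe sets. The closest were Pwwp3b (0.056), Snn, which encodes stannin (0.067), Trp53inp1, a gene induced by p53 (0.074), the calcium-dependent kinase gene Camk1d (0.077) and Tial1, which encodes an RNA-binding protein (0.078). For Trp53inp1 the siRNA-140 arrays read 8.89, 8.94 and 10.26, and the siRNA-96 arrays read 8.74, 10.26 and 10.13. The gene closest to the mirror image was Tmbim6, an inhibitor of cell death in the endoplasmic reticulum (0.077), at 10.85, 10.91 and 9.67 on siRNA-140 arrays, against 10.98, 9.71 and 9.76 on siRNA-96 arrays. It was followed by Bbip1, Mknk2, Efhd1 and Anxa8, at 0.083 to 0.097. On this measure the second bright Cxcl12 probe set lay at 0.18 from the first, Cxcr4 at 0.33 and Ackr3 at 0.49. These 10 genes all repeat the split of the siRNA arrays, and their likeness rests on it.

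**Figure D3:**
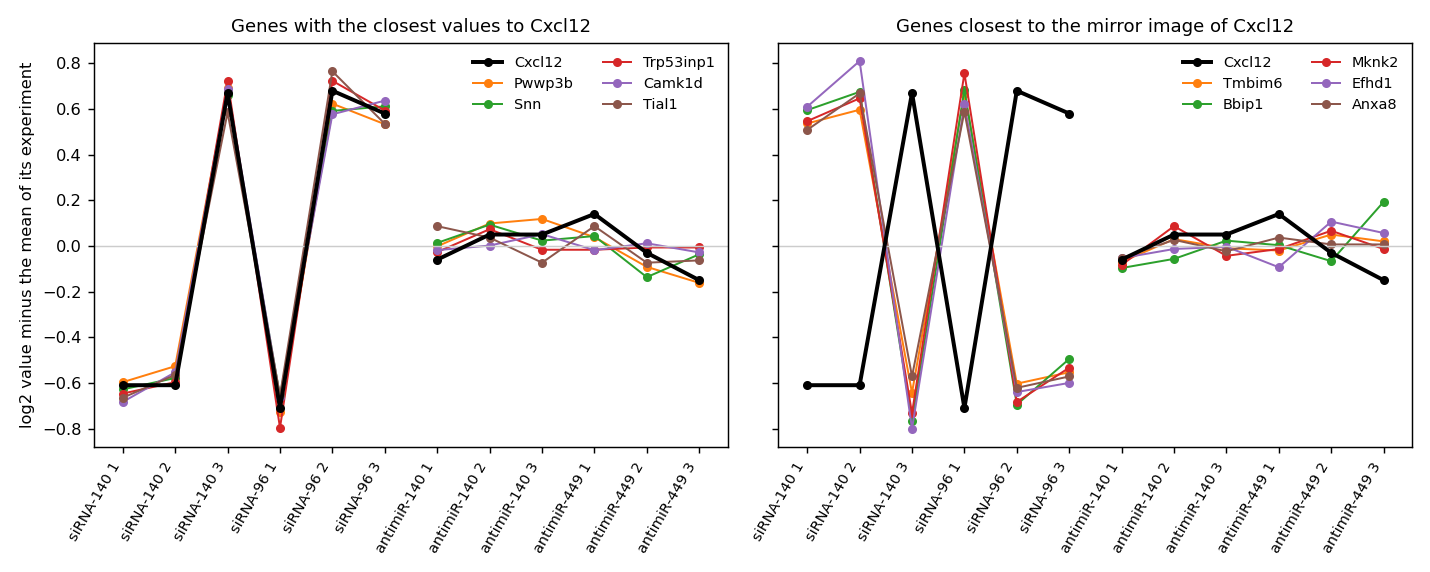
Log2 value minus the mean of its experiment (vertical axis) on each array (horizontal axis) for Cxcl12 probe set 1448823_at (black) and for the 5 closest genes (left) or the 5 closest to its mirror image (right). Lines join arrays only to guide the eye. Cxcl12 and the genes at left are low in siRNA-140 replicates 1 and 2 and siRNA-96 replicate 1, those at right are high there, and all stay near their mean on the antimicroRNA arrays.

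Cxcl12, Cxcr4 and 9 of 10 measured interferon response genes shared the split of the siRNA arrays, as did 12.3% of all genes. Ackr3 did not share it, and the promoters of the 3 genes are shown for this reason. Each is the RefSeq sequence (GRCm38.p6) of the 250 bases before the annotated start, 5′ to 3′ along the gene's strand. Cxcl12 is at chr6:117168285-117168534 (plus strand), Cxcr4 at chr1:128592300-128592549 (minus strand) and Ackr3 at chr1:90203730-90203979 (plus strand). Capitals mark matches on either strand to the GC box GGGCGG, bound by Sp1, or the TATA box TATAAA.
Cxcl12 promoter: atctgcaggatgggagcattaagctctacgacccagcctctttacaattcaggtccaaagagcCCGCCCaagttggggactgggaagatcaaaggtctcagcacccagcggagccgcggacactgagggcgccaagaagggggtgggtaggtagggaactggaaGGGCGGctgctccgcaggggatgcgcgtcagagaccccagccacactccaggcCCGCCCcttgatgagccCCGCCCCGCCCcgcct
Cxcr4 promoter: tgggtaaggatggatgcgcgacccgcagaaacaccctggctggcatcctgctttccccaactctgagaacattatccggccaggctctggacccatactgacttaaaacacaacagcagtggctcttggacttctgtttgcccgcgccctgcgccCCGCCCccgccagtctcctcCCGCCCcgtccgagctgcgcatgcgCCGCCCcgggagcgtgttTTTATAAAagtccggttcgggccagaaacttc
Ackr3 promoter: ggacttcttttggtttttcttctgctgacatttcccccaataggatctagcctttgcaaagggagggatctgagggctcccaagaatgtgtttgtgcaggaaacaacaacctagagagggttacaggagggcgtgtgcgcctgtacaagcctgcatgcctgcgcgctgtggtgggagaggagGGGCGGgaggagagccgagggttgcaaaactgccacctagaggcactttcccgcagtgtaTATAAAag
The Cxcl12 window held 5 GC boxes, of which the last pair overlaps, and no TATA box. Cxcr4 held 3 GC boxes, and its pair of TATA matches is 1 overlapping element read on both strands. Ackr3 held 1 GC box and 1 match to the letters TATAAA. The first base of that match lies 8 bases before the annotated start, against 32 and 30 for the matches of Cxcr4. A GC box was found in 32.7% and a TATA box in 12.4% of 32851 promoter windows of the same length. The core of the interferon-stimulated response element, found in 2.98% of windows, and the hypoxia element core ACGTG, found in 16.6%, had no match in any of these 3 windows, which says only that these letters are not in them.

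Genes of the pathway around Cxcl12 were read from lists, each gene by its brightest probe set. In the comparison of siRNA-140 with siRNA-96 as labelled, 0 genes of any list passed, and the same held for antimicroRNA-140 against antimicroRNA-449. Of the other ligands, 4 of 5 were measured, with a median difference of -0.06 with siRNA-140 and -0.11 with antimicroRNA-140, beside 0.03 and -0.003 over all 18193 genes. Mif, a cytokine that also binds Cxcr4, differed by -0.04 ± 0.11 and -0.03 ± 0.11 in these contrasts, in the same order. Adm, a peptide hormone that Ackr3 takes up, differed by 0.27 ± 0.14 and -0.10 ± 0.14. Cxcl11, the other chemokine ligand of Ackr3, differed by -0.13 ± 0.12 and -0.12 ± 0.12. Without the 2 siRNA arrays the siRNA differences were -0.22 ± 0.11 for Mif, 0.18 ± 0.16 for Adm and -0.23 ± 0.14 for Cxcl11, and 0 of the 4 ligands passed. The genes named from here on are given with those arrays left out, and none of them passed with all arrays.

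Signalling genes had medians at 0 and -0.01 over 29 genes of 33. Without the 2 siRNA arrays, 4 of them were lower and 4 higher with siRNA-140, beside 4.85% lower and 6.27% higher among all genes. Cd74, a surface partner of Mif and of Cxcr4, was lower by -0.68 ± 0.13 and Stam, an adaptor in the sorting of ubiquitinated receptors, was higher by 0.67 ± 0.12. Arrb1, an arrestin gene, had 4.10, 4.49 and 5.10 on siRNA-140 arrays, against 4.24, 4.97 and 5.06 on siRNA-96 arrays, and was lower by -0.72 ± 0.14 in that setting. Arrb2, its close relative, differed by 0.13 ± 0.14. Pik3cb, a phosphoinositide kinase gene (-0.545), and Rgs4, a regulator of G protein signalling (-0.555), were the other two on the lower side. Gnai3, an inhibitory G protein subunit gene (0.54), the small GTPase gene Rhoa (0.63) and Dock1, an exchange factor gene (0.525), were higher. These genes, Arrb1 and Arrb2 included, are named after their values were seen, as are the chemokine genes Cx3cl1, Ccl9 and Ccl25 below. Of 12 measured proteases and matrix components that act on the ligand, 1 was higher, the heparan sulfate proteoglycan gene Gpc1 (0.93 ± 0.14), beside 6.27% of all genes. Mmp2, a gelatinase that cleaves Cxcl12, differed by 0.085 ± 0.10.

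Of 14 measured genes that mark or are made by bone marrow stroma beside Cxcl12, 6 were lower and 1 higher in that setting, beside 4.85% lower and 6.27% higher among all genes, with a median of -0.24 beside 0.035 over all genes. Jag1, a Notch ligand, was lower by -1.03 ± 0.19 and Foxc1, a transcription factor of Cxcl12-rich stromal cells, by -0.65 ± 0.10. Kitl, the stem cell factor gene, was the one that was higher, by 0.55 ± 0.11. Foxc1 had 8.60, 8.62 and 9.29 on siRNA-140 arrays, against 8.35, 9.27 and 9.25 on siRNA-96 arrays, the same split as Cxcl12. Of 13 factors linked to Cxcl12 transcription, Foxc1 among them again, 6 were lower and 3 higher, beside the same 4.85% and 6.27%. Epas1, which encodes a hypoxia-inducible factor, was lower by -1.185 ± 0.10 and the growth factor gene Tgfb2 by -1.875 ± 0.14. Tgfb1 (0.55 ± 0.11) and the receptor genes Tgfbr1 (0.545 ± 0.11) and Tgfbr2 (0.75 ± 0.11) were higher. Foxc1, Epas1 and Tgfb2 fell outside the rule for named genes and were chosen after their values were seen.

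Among 28 other chemokines, 3 were lower and 2 higher without the 2 arrays, beside 4.85% lower and 6.27% higher among all genes. Cxcl10 had 3.50, 3.08 and 4.17 on siRNA-140 arrays, against 3.45, 5.52 and 5.87 on siRNA-96 arrays, and was lower by -2.405 ± 0.18. Ccl5 had 3.93, 4.06 and 5.69 on siRNA-140 arrays, against 4.17, 6.03 and 5.98 on siRNA-96 arrays, and was lower by -2.01 ± 0.12. Cx3cl1, the fractalkine gene, was lower by -0.535, and Ccl9 (0.61) and Ccl25 (0.66) were higher. Of 19 other chemokine receptors, 1 was lower, a share near the 4.85% of all genes. It was Ackr4 (-1.05 ± 0.25), a scavenger of CCL chemokines. The 10 measured interferon response genes of 12 listed were all lower in that setting, where 4.85% of all genes were, with a median of -3.78. Their mean over the list ran from 4.25 to 6.59 on the siRNA-140 arrays and from 4.48 to 8.31 on the siRNA-96 arrays, and it lay between 3.71 and 4.24 on all antimicroRNA arrays. Under the Vnn1 profile block the 10 genes had a median of -0.735, with 0 called, beside 0.025 over all genes. The bright Cxcl12 probe sets gave 0.07 and 0.075 under that block. The interferon list was written with its behaviour on these arrays known. Its part in the Cxcl12 values was not tested.

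**Figure D4:**
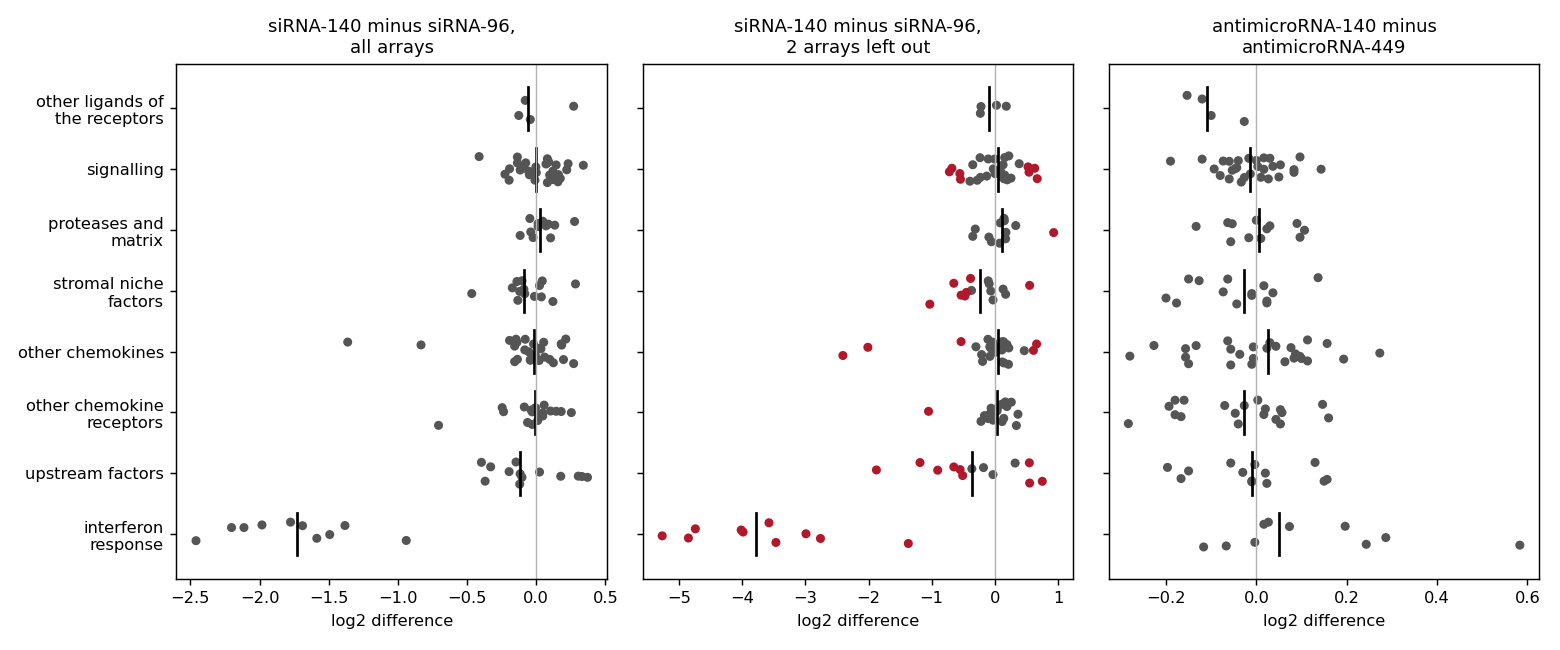
Log2 difference (horizontal axis, with its own scale in each panel) of every measured gene of 8 lists (rows), for siRNA-140 minus siRNA-96 with all arrays, for the same with 1 array of each label (siRNA-140 replicate 3, siRNA-96 replicate 1) left out, and for antimicroRNA-140 minus antimicroRNA-449. Points are genes, black lines are list medians, and red marks a limma adjusted p under 0.05. Calls appear only in the middle panel, where the interferon response genes have the lowest list median, -3.78.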

How the data were processed

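The deposited values are log2 expression values of 12 arrays made by the authors with RMA, per the submitters' processing notes; no source used here names its version, the probe set definition or a genome build. The table held 45101 probe sets; 64 array controls were left out. Symbols came from the platform annotation, and genes were named only from probe sets with 1 symbol. Of 169 list genes, 154 had such a probe set.

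limma 3.58.1 in R 4.3.3 was fitted to 4 group means over all 12 arrays (eBayes), with no filter, and p-values were adjusted (Benjamini-Hochberg) over 45037 probe sets; a call is an adjusted p under 0.05. The fit was also run on simulated data with independent noise at each probe set. Those data lack the shared split of the siRNA arrays, so that run does not bear on it. Exact permutation tests used scipy 1.17.1. The members, lists and alternatives were chosen with earlier results of these data known. Beside the members and Vnn1, the text names up to 4 genes a list by smallest p in siRNA-140 minus siRNA-96, and the genes closest to a member; exceptions are marked. The alternatives were the arrays of 1 experiment alone, a replicate block, quantile normalization or median centring, the brighter probe sets only, a variance trend, array weights, 1 probe set or the mean of all probe sets per gene, single arrays left out, and both ways of treating the arrays that stand apart. RMA values carry no counts, so no counting error can be given; the number of arrays, their spread and dim signals limit the precision.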

Additional observations from a re-analysis of the deposited data

How the results depend on the processing

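For siRNA-140 minus siRNA-96, 109 recomputed member values kept their direction and stayed uncalled, 8 turned and 5 were called. Leaving out siRNA-140 replicate 3 and siRNA-96 replicate 1 moved the bright Cxcl12 probe sets to -1.24 and -1.66 and Cxcr4 to -0.575, all called (with 4 siRNA arrays alone, the same Cxcl12 values), turned the dim Cxcl12 probe set to 0.035 and raised the calls to 4043 probe sets (1743 with 4 arrays alone; these 4-array and 6-array fits were chosen after seeing the data). The Vnn1 profile block turned the bright Cxcl12 probe sets to 0.07 and 0.075, also in the 6 siRNA arrays alone. Single arrays left out gave -0.00167 to 0.25 for Ackr3, -0.0933 to 0.0317 for 1439084_at and 0 to 36 called probe sets. The 36 calls came without siRNA-96 replicate 1, and 25 without siRNA-96 replicate 2. The replicate block changed no call: the difference at 1448823_at was again -0.37, with an interval of -0.89 to 0.15, and limma called 0 probe sets in either contrast (3185 and 1086 at an unadjusted p under 0.05). Deviations from the group means of same-numbered arrays correlated at 0.41, -0.24 and 0.44 in the siRNA experiment and at -0.0137, 0.10 and -0.0316 in the antimicroRNA experiment. Those of siRNA arrays with different numbers ran from -0.68 to 0.49. The split of the siRNA arrays enters these values, so they cannot show whether the numbers pair those arrays.

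For antimicroRNA-140 minus antimicroRNA-449, 98 kept their direction and 4 turned, with no call among the alternatives run. Single arrays left out gave -0.0417 to 0.10 and -0.0417 to 0.23 at the bright Cxcl12 probe sets, -0.0283 to 0.11 for Ackr3 and -0.20 to 0.0433 for Cxcr4. In the difference of both contrasts, the bright Cxcl12 probe sets became -1.27 and -1.75 without the 2 siRNA arrays (1985 probe sets called), 1448823_at became 0.0433 under the profile block, and Ackr3 ran from -0.0583 to 0.19 and the calls from 0 to 1 as single arrays were left out. Genes called without the 2 arrays numbered 8 of 29 signalling genes, 1 of 12 proteases and matrix genes and 7 of 14 niche factors. They also numbered 5 of 28 other chemokines, 1 of 19 other chemokine receptors, 9 of 13 upstream factors and 10 of 10 interferon response genes. Among all genes in that setting 4.85% were called lower and 6.27% higher. In each of these lists 0 genes were called with all arrays, with probe sets averaged per gene and under the profile block. Cxcr4 had no value among the brighter probe sets only, nor had the lesser Cxcl12 probe sets with 1 probe set per gene. The 3 arrays a group and the dim Cxcr4 signal limit what could be seen.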

Other observations

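Among probe sets with a mean at or above the median of all, the values closest to those of Cxcr4 were of Slc44a1, Csrp1 and Wls. Their root mean square difference was 0.087 to 0.090 over the 12 arrays. Cxcr4 itself lay below that median, so probe sets as dim were not compared. Slc44a1 is a choline transporter gene, and Csrp1 encodes a LIM domain protein of the actin cytoskeleton. The Wls protein carries Wnt ligands to the cell surface. Csrp1 had 8.16, 8.26 and 8.86 on siRNA-140 arrays, against 8.22, 8.83 and 8.63 on siRNA-96 arrays. This is the split seen at Cxcr4, on a brighter probe set. Among the same brighter probe sets, the genes closest to Ackr3 were Adgrg6, an adhesion receptor gene, Ube2w, a ubiquitin-conjugating enzyme gene, and Rab3gap1, at 0.060 to 0.071. Adgrg6 had 8.04, 7.63 and 7.88 on siRNA-140 arrays, against 7.81, 7.80 and 7.82 on siRNA-96 arrays, so that, as at Ackr3, siRNA-140 replicate 1 was the highest and siRNA-140 replicate 2 the lowest of the siRNA arrays.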
